A study of Rattus norvegicus with 172 samples.

Results

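Interleukin-6 (IL-6) family cytokines and their signalling chain were followed in transected rat spinal cord through 7 genes: the ligands Il6 and Lif, the receptor subunits Il6r, Il6st and Osmr, the transcription factor Stat3 and the feedback inhibitor Socs3. Members were taken by gene symbol from the array annotation, and a gene with several probe sets was represented by the brightest one on average over the cord arrays. Of the 7 genes, 6 had a probe set, out of 14218 genes in all, and Osmr was not analysed here. Of these 6, 5 reached the signal level required for testing in at least 1 group.

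The arrays came from adult female Wistar rats of 2 months in which 5 mm of cord was removed at T7-8. All 3 arms carry this transection: the lesion control received nothing further, the tube alone arm an empty chitosan tube in the gap, and the NT-3 tube arm a chitosan tube loaded with neurotrophin-3 (NT-3) chitosan carriers. Blocks of 5 mm with dura and meninges were taken from the lesion and from the stumps rostral and caudal to it. The stumps were sampled on days 1, 3, 10, 20, 30, 60 and 90 and the lesion from day 3. In the tube alone arm the lesion was sampled only on day 3. This gave 164 arrays in 55 groups of 3 arrays, except the rostral group of tube alone on day 10 with 2. Normal cord from T7-8 without a lesion gave 3 arrays, which serve as the baseline of every segment and day, so comparisons with normal cord are not independent of each other. Each array of injured cord held RNA pooled from 4 animals. An operated group without transection was not analysed here.

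IL-6 type cytokines bind a ligand-specific receptor chain, which pairs with the shared signal-transducing chain encoded by Il6st. Janus kinases bound to that chain phosphorylate STAT3, which enters the nucleus and switches on acute-phase and growth genes. Socs3 is among these targets, and its protein blocks the receptor complex and so ends the signal. In injured nervous tissue the pathway is known for leukocyte recruitment, for the reactive state of astrocytes and for neuronal responses to axon damage.

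Because Il6 had the widest range of the members, the 250 bases before its start are shown. They lie at chr4:5894576-5894825 on the minus strand of GRCr8 and come from the RefSeq promoter table, which matched 6 of the 7 members and has no entry for Lif. In GRCr8 the gene itself spans chr4:5889999-5894575, so the whole window lies upstream of the annotated gene.

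Il6 upstream window: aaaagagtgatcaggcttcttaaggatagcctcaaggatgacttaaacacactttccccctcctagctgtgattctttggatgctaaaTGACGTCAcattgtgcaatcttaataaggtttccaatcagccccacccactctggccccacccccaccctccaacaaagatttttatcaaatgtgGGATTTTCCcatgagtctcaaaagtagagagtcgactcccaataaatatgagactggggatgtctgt

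The capitals mark matches on the printed strand to the cyclic AMP response element TGACGTCA, at -162 to -155 from the start, and to the NF-kappaB-type motif GGNNTTTCC, at -67 to -59. Both strands were searched, and the matches do not overlap. Of 33469 promoter windows of the same length in the table, 1.59% hold the first motif and 5.19% the second. The STAT motif TTCNNNGAA, present in 7.67% of windows, and the AP-1 motif TGANTCA, present in 6.34%, have no match in this window. Among the other members with a window only Osmr matched any of these motifs, an AP-1 motif at -33 to -27, and their windows overlap the annotated span of the gene. A match is a description of the letters only.

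All values below are log2 RMA signals, so a difference of 1 is a doubling. Array medians lay between 7.10 and 7.25 and array values between 2.6 and 15.0. A group mean counts as near background when it is under 6.55, which 40% of the probe set values of the cord arrays do not exceed. Differences were tested with limma across 11479 to 11989 genes, and a gene was called at a Benjamini-Hochberg adjusted p under 0.05. The median difference over all tested genes against normal cord lay between -0.06 and 0.11 in these comparisons. The lesion segment changed in its make-up of cells: in lesion control on day 3 the mean of 10 neuronal markers was 2.25 to 4.30 below normal cord, and the mean of 10 microglia and macrophage markers 3.27 to 3.33 above it. In bulk tissue, fewer cells of a type and less RNA per cell cannot be told apart. The class I histocompatibility gene RT1-CE10 divides the groups: in lesion control its mean was 10.95 rostrally, 11.60 in the lesion and 11.08 caudally on day 30, against 6.71 to 7.85 on the other days and 6.55 in normal cord.

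Lif (probe set 1368804_at, gene at chr14:83354602-83364053 in GRCr8), the ligand known as leukaemia inhibitory factor, stayed near background in every group. Normal cord gave 4.76, 4.82 and 5.11, and the 55 injured groups had means from 4.51 to 5.25. No group had every array above normal cord, and 7 groups had every array below it. Since no group mean reached the level required, Lif was not tested with the other members. With the dim filter left off, Lif was called in 4 of 20 comparisons of lesion control with normal cord. All 4 were lower, by -0.38 to -0.26, and all 20 differences lay between -0.38 and 0.26. With the filter on, 55.2%, 72.3% and 50.9% of tests over all genes were called in either direction in the rostral, lesion and caudal segments.

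Il6 (probe set 1369191_at), the ligand that names the family, had the largest differences from normal cord of the members. In normal cord the 3 arrays read 4.11, 3.90 and 3.84. On day 1 the lesion control arrays read 10.74, 9.11 and 9.10 rostral to the lesion and 9.05, 8.73 and 9.84 caudal to it. Every day 1 array lay far above every normal array, and both stumps covered much the same range. The difference was 5.70 ± 0.35 (SE) rostrally (adjusted p = 2.51e-18) and 5.26 ± 0.21 caudally (adjusted p = 5.52e-25). In the lesion, first sampled on day 3, the arrays read 8.22, 8.29 and 9.27, which is 4.64 ± 0.41 above normal cord (adjusted p = 8.21e-12). The normal cord mean of 3.95 is near background, where RMA compresses differences.

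Il6 then fell within days in the stumps. By day 3 the rostral lesion control arrays read 5.20, 5.81 and 5.73 and the caudal ones 5.47, 6.01 and 6.52. None of these reached the day 1 range of its stump, and all remained above normal cord. From day 1 to day 3 Il6 fell by 4.07 rostrally (limma, adjusted p = 7.09e-13) and by 3.21 caudally (adjusted p = 8.04e-17). From the first day to the mean of days 60 and 90 it fell by 5.48 rostrally (adjusted p = 7.07e-20), by 4.08 in the lesion (adjusted p = 1.35e-11) and by 4.97 caudally (adjusted p = 1.03e-26). These decreases stand against broad change: 33.3% of genes were called in either direction from day 1 to day 3 rostrally and 45.3% caudally, and 50%, 67.2% and 42.5% of genes to the late days in the rostral, lesion and caudal segments.

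**Figure D1:**
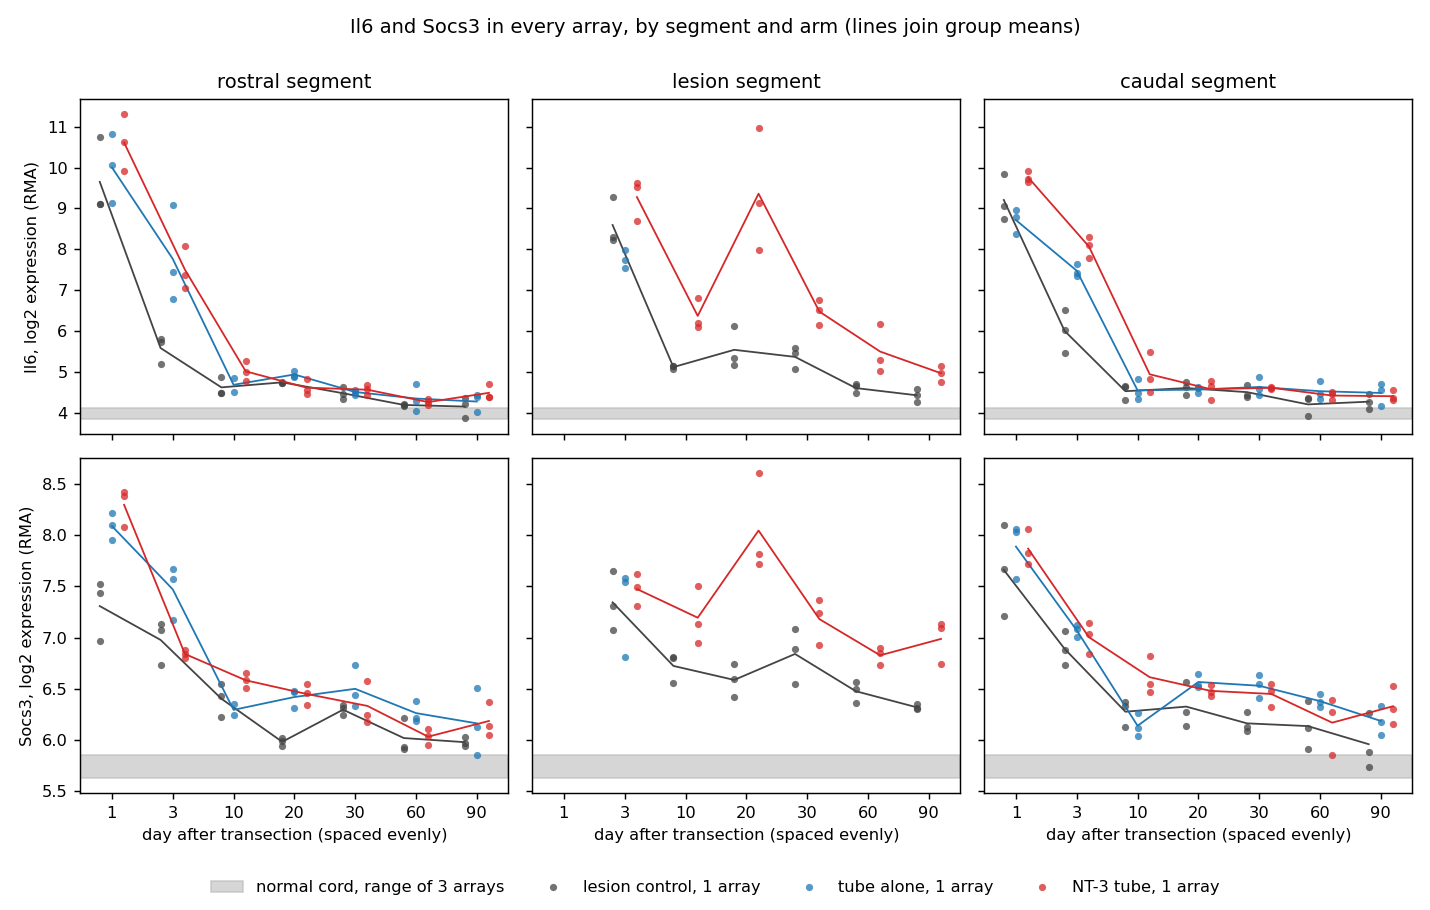
Il6 (upper panels) and Socs3 (lower panels) as log2 RMA signal in every array of the 3 arms, by segment (columns) and day after transection, spaced evenly. Each point is 1 array coloured by arm, lines join group means and the grey band is the range of the 3 normal cord arrays; lesion control Il6 is highest on the first day sampled, at 9.10 to 10.74 rostrally, 8.22 to 9.27 in the lesion and 8.73 to 9.84 caudally, and the NT-3 tube arm has a further peak in the lesion on day 20, at 7.98 to 10.98.

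In the lesion Il6 was still called on days 10, 20 and 30. On day 10 the lesion arrays read 5.14, 5.13 and 5.07, on day 20 5.16, 6.12 and 5.33, and on day 30 5.45, 5.06 and 5.58. All 9 lay above the normal arrays although their group means were near background. Lesion control exceeded normal cord there by 1.16 (adjusted p = 0.0123), 1.59 (0.00103) and 1.41 (0.00283), while the differences of 0.65 on day 60 and 0.47 on day 90 were not called (adjusted p = 0.157 and 0.32). Rostrally the differences after day 3 ran from 0.20 to 0.79 and none was called. Caudally 0.57, 0.65 and 0.55 were called on days 10, 20 and 30 (adjusted p = 0.0247, 0.00924 and 0.0257), and these 3 calls were lost when all cord arrays shared 1 fit (adjusted p = 0.17, 0.106 and 0.17). The caudal calls on days 10 and 30 were also lost without normal cord replicate 2 or 3, without lesion control caudal day 10 replicate 1 or 3 and without lesion control caudal day 30 replicate 3 (differences of 0.46 to 0.55, adjusted p = 0.0647 to 0.105). Il6 passed the filter on dim genes only through its high groups, since 14 of 55 group means reached 6.55.

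Il6 was higher in the lesion than in the mean of both stumps by 2.80 ± 0.29 on day 3 (adjusted p = 3.32e-15), when 69.4% of genes differed in either direction. The excess was 0.76 over days 10 to 30 (adjusted p = 3.02e-05, background 79.6%; 0.70 with day 30 left out) and 0.31 over days 60 and 90 (adjusted p = 0.172, background 72.1%). The stumps themselves were close: rostral minus caudal was 0.01 ± 0.24 over days 1 and 3, 0.07 over days 10 to 30 and -0.07 over days 60 and 90. None of the 5 members was called between the stumps in any of these windows, in which 0.025%, 6.97% and 2.34% of all genes were called.

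Il6r (1386987_at, gene at chr2:177582020-177646705 in GRCr8), the receptor chain that binds IL-6, was raised throughout. In normal cord its arrays read 6.65, 6.83 and 6.72, and every array of all 55 injured groups lay above them. It was called higher in lesion control in each of the 20 combinations of segment and day, by 0.72 to 1.55 rostrally, 1.34 to 2.41 in the lesion and 0.92 to 1.47 caudally.

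The highest lesion control level of Il6r was in the lesion on day 3, at 9.07, 9.27 and 9.08, or 2.41 ± 0.17 above normal (adjusted p = 2.07e-14). On day 90 the lesion arrays read 7.93, 8.18 and 8.12, below the day 3 arrays and still above normal by 1.34 (adjusted p = 2.07e-08). In the stumps the order of days was different. Rostrally the day 1 arrays read 7.44, 7.40 and 7.52, and Il6r rose by a further 0.64 to day 3 (adjusted p = 7.39e-04) and stood 0.70 above its day 1 level on the late days (adjusted p = 1.35e-05). Caudally the difference from day 1 to day 3 was 0.45 (adjusted p = 0.0232), a call lost without lesion control caudal day 1 replicate 1 (0.30, adjusted p = 0.189), and also without day 1 replicate 2 or day 3 replicates 2 or 3 (adjusted p = 0.0508, 0.0515 and 0.0601). The late difference of 0.19 there was not called (adjusted p = 0.283). The lesion fell by 0.94 from day 3 to the late days (adjusted p = 1.01e-06).

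Il6r exceeded its stump level in the lesion by 1.00 on day 3 (adjusted p = 8.1e-10) and by 0.20 over days 10 to 30 (adjusted p = 0.0195), while 0.15 over days 60 and 90 was not called (adjusted p = 0.16). The middle value was 0.32 with day 30 left out (adjusted p = 0.00318), and its call was lost without lesion control lesion day 10 replicate 2 (0.15, adjusted p = 0.0931) or day 30 replicate 1 (0.18, adjusted p = 0.0512). Microglia and macrophage markers moved with Il6r: the mean of the 10 markers stood 1.75 to 1.85 above normal cord rostrally on day 1, 2.69 to 2.82 there on day 3, and 2.22 to 2.36 in the lesion on day 90. Their part in the Il6r result was not tested.

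Il6st (1371926_at, gene at chr2:45798872-45839501 in GRCr8) encodes the shared chain, often called gp130, through which all these cytokines signal. It was abundant in normal cord, where the arrays read 10.69, 10.79 and 10.77, and its changes were small with this probe set. In the lesion the day 3 arrays of lesion control, at 10.82, 10.81 and 10.95, were barely above normal (0.11 ± 0.10, adjusted p = 0.302). By day 60 they read 11.62, 11.59 and 11.66 and by day 90 11.58, 11.52 and 11.58, with no overlap with either the normal or the day 3 arrays. The difference from normal cord was 0.29 on day 10, 0.69 on day 20, 0.76 on day 30, 0.87 on day 60 (adjusted p = 1.7e-09) and 0.81 on day 90 (adjusted p = 9.77e-09). The day 10 call was lost without replicate 1 of that group (0.21, adjusted p = 0.073).

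The rise of Il6st from day 3 to the late days in the lesion was 0.73 (adjusted p = 4.38e-09), the opposite direction to Il6. Against the stumps the lesion was 0.23 lower on day 3 (adjusted p = 0.00991), 0.42 higher over days 10 to 30 (1.66e-14) and 0.52 higher over days 60 and 90 (1.33e-14). The day 3 call was lost without lesion control lesion day 3 replicate 2 (-0.20, adjusted p = 0.0536). In the stumps Il6st differed from normal by 0.13 to 0.29 rostrally, with 4 of 7 days called, and by 0.12 to 0.42 caudally, with 5 of 7 called. The rostral calls on days 1, 3 and 60 and the caudal call on day 20 were lost without single arrays, normal cord replicate 1 being one of them on days 1, 60 and 20. The lesion control lesion also carried fibroblast and meningeal markers, whose mean over 8 genes was 3.28 to 3.34 above normal on day 90. Their part in the late level of Il6st was not tested.

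Il6st has 3 other probe sets, which correlate with the one used at r = 0.478, 0.704 and 0.738 over the 167 cord arrays. Their median differences from normal over the 55 groups were 0.57, 0.45 and 0.59, against 0.29 for the probe set used. Their highest were 1.64, 1.72 and 2.02, against 0.92. With the mean of all 4 probe sets, the lesion difference was 0.33 on day 3 (adjusted p = 0.00625), 0.97 on day 10 and 1.17 on day 90, so the day 3 call depends on the probe set while the later rise is in both.

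Stat3 (1370224_at, gene at chr10:86311528-86363513 in GRCr8), the transcription factor activated by the receptor complex, read 9.62, 9.53 and 9.57 in normal cord. These are transcript levels and say nothing of its phosphorylation. On day 1 lesion control gave 10.94, 10.67 and 11.32 rostrally and 11.24, 11.13 and 11.50 caudally. All 6 arrays lay at least 1 unit above normal, by 1.40 ± 0.18 (adjusted p = 1.98e-08) and 1.72 ± 0.32 (adjusted p = 1.68e-05). In the lesion the difference was 1.16 on day 3, 1.10 on day 10 and 1.39 on day 20, all called.

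The later course of Stat3 was uneven. On day 30 the lesion arrays read 9.24, 9.80 and 9.61 and the caudal ones 9.67, 9.21 and 9.50, overlapping normal cord in both segments. The differences were -0.02 in the lesion and -0.11 caudally (adjusted p = 0.895 and 0.785). These are the groups set apart by RT1-CE10, at 11.60 and 11.08, and its part in the Stat3 values was not tested. On day 60 the caudal arrays spread from 9.13 through 10.58 to 11.05, and on day 90 the lesion was again 1.27 above normal (adjusted p = 7.49e-09). From day 1 to the late days Stat3 fell by 0.48 rostrally (adjusted p = 0.0103) and by 0.89 caudally (adjusted p = 0.00801). Both calls rest on replicate 3 of day 1: without it in lesion control rostral day 1 the difference was -0.31 (adjusted p = 0.153), and without it in lesion control caudal day 1 it was -0.79 (adjusted p = 0.0514).

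The dip on day 30 was not seen by the other Stat3 probe set. That probe set read 8.63 in normal cord and was higher in all 55 injured groups, by 0.35 to 1.59 with a median of 0.85. On day 30 it stood 0.79, 1.01 and 0.79 above normal in the rostral, lesion and caudal segments of lesion control. The probe set used ranged from -0.11 to 1.72 with a median of 0.97. The probe sets correlated at r = 0.455 over 167 arrays, which share their normalisation. With the mean of both, the lesion on day 30 was 0.49 above normal (limma, adjusted p = 4.47e-06), so its direction there depends on the probe set.

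**Figure D2:**
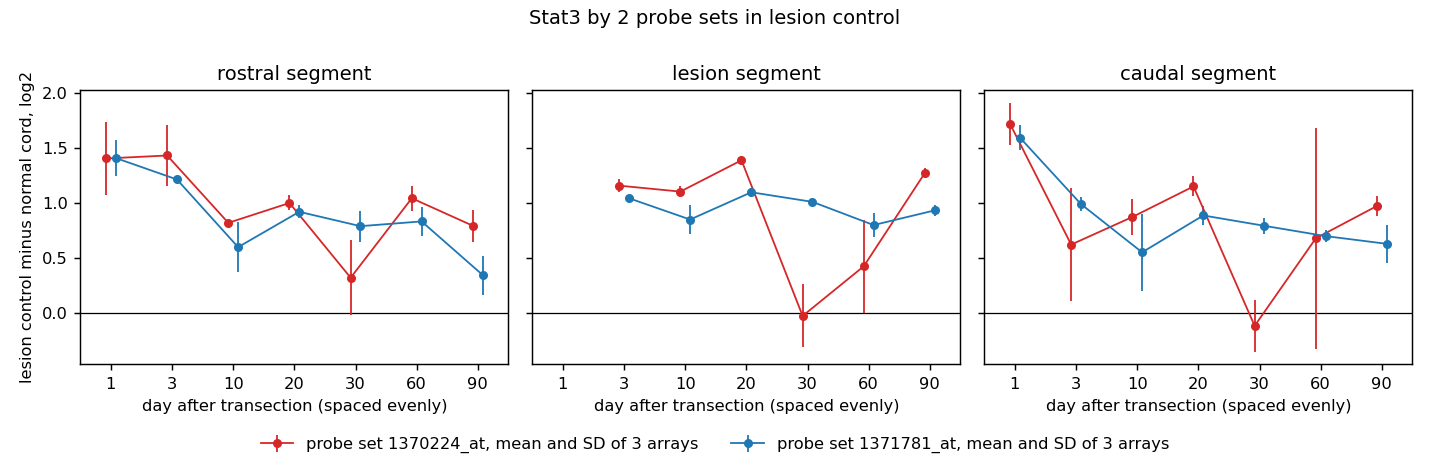
Lesion control minus normal cord (log2) for the Stat3 probe set used, 1370224_at (red), and the other one, 1371781_at (blue), by segment and day after transection, spaced evenly. Points are the difference of group means and bars the SD of the 3 lesion control arrays; on day 30 the first drops to -0.02 in the lesion and -0.11 caudally while the second stays at 1.01 and 0.79.

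**Figure D3:**
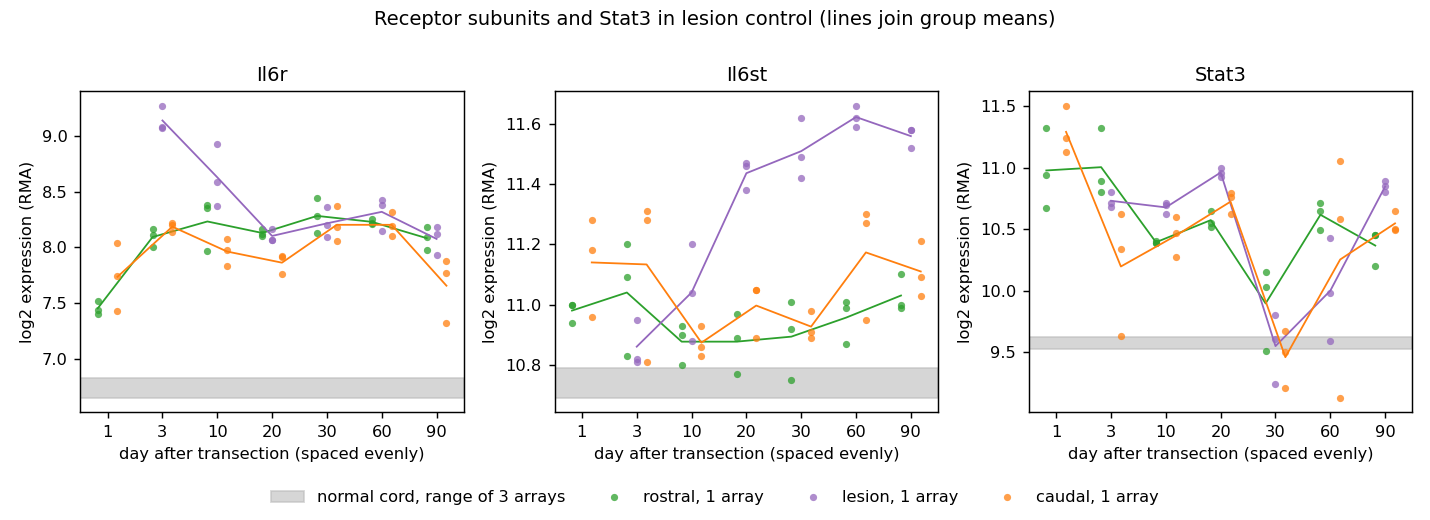
Il6r, Il6st and Stat3 (panels) as log2 RMA signal in each lesion control array, by day after transection, spaced evenly. Points are arrays coloured by segment, lines join group means and the grey band is the range of the 3 normal cord arrays; every Il6r array is above the band, Il6st reaches 11.52 to 11.66 in the lesion on days 60 and 90, and on day 30 the Stat3 means are at 9.55 in the lesion, inside the band, and at 9.46 caudally, below it.

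Socs3 (1369584_at, gene at chr10:103692579-103695975 in GRCr8), the inhibitor induced by STAT3, was raised from the first day. Normal cord read 5.67, 5.63 and 5.85. On the first day sampled, lesion control read 7.43, 6.97 and 7.52 rostrally, 7.31, 7.07 and 7.65 in the lesion and 7.67, 7.21 and 8.10 caudally. Every one of these 9 arrays lay above normal by more than 1 unit. The differences were 1.59 ± 0.14 (adjusted p = 1.06e-13), 1.63 ± 0.20 (5.57e-09) and 1.94 ± 0.15 (4.33e-15). The normal cord mean of 5.72 is near background.

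Socs3 then declined, and on the late days it stood higher in the lesion than in the stumps. It fell by 1.31 rostrally and by 1.61 caudally from day 1 to the late days (adjusted p = 5.19e-13 and 1.79e-14). In the lesion all 6 days were called, down to 0.60 on day 90 (adjusted p = 0.00747), whereas on day 90 the rostral difference of 0.26 and the caudal one of 0.24 were not (adjusted p = 0.0989 and 0.202). Over days 60 and 90 the lesion exceeded the stumps by 0.37 (adjusted p = 4.85e-04). The excess of 0.41 on day 3 (adjusted p = 0.00711) was lost without replicate 3 of lesion control lesion day 3 (0.26, adjusted p = 0.16).

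Read against the whole array, nearly all members were called on the first days. Of the 5 tested, none was called lower than normal cord in lesion control in any segment or day. Rostrally 5, 5, 3, 2, 2, 3 and 3 were called higher on days 1, 3, 10, 20, 30, 60 and 90, where 22.9%, 29.9%, 25.3%, 30.2%, 28.5%, 25.2% and 21.6% of all tested genes were. In the lesion 4, 5, 5, 4, 4 and 4 were called higher from day 3 to day 90, against 42.3%, 38.3%, 37.6%, 41.1%, 34.9% and 32.6% of genes. Caudally the counts were 5, 4, 4, 5, 3, 3 and 3, against 23.1%, 32.8%, 20.1%, 25.7%, 28.4%, 25% and 18.7%. The median difference of the 5 members was 1.40 rostrally and 1.72 caudally on day 1 and 1.63 in the lesion on day 3. On day 90 it was 0.28, 0.36 and 0.81 in the same segments, while the median of all tested genes lay between -0.06 and 0.11. These counts and medians depend in part on the filter on dim genes, which was applied to all genes alike. Il6 and Socs3, at 3.95 and 5.72 in normal cord, passed it only through groups in which they were higher. Of the 55 injured group means, 14 of Il6 and 26 of Socs3 reached the limit of 6.55. Lif, with no mean at that level, was left out by the same filter.

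Treatment was compared within each segment on arms that share the transection, and the tube comparisons share the lesion control arrays. The largest difference of any member between the NT-3 tube arm and lesion control was that of Il6 in the lesion on day 20. There Il6 read 9.12, 7.98 and 10.98 with the NT-3 tube, against 5.16, 6.12 and 5.33 in lesion control. The lowest treated array was above the highest control array, and the treated arrays spread widely, the one numbered 5 being highest. The difference was 3.82 ± 0.41 (limma, adjusted p = 1.38e-08), and 3.01 without that array (adjusted p = 4.25e-08). The lesion control mean there, 5.54, is near background.

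The feedback inhibitor and the receptor chain were higher in the same arrays. Socs3 read 7.81, 7.72 and 8.60 against 6.42, 6.60 and 6.74, without overlap, a difference of 1.46 ± 0.20 (adjusted p = 7.04e-07), or 1.18 without array 5. Il6r read 9.08, 8.71 and 9.03 against 8.17, 8.07 and 8.07, again without overlap, a difference of 0.84 ± 0.17 (adjusted p = 2.09e-04). Il6st and Stat3 were not called (-0.18 and -0.23, adjusted p = 0.154 and 0.248), although without array 5 Il6st was called lower by 0.35. Thus 3 of 5 members were higher on that day, when 19.5% of all genes were.

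The day 20 difference was larger in the lesion than in the stumps. The NT-3 tube minus lesion control difference exceeded the mean of that in both stumps by 3.90 ± 0.42 for Il6 (adjusted p = 2.64e-13), 1.15 for Socs3 (2.02e-06) and 0.68 for Il6r (0.00759), where 13.6% of genes were called higher. Without array 5 the values for Il6 and Socs3 were 3.09 and 0.87. Several tissue markers differed between the same arrays. The mean of 10 muscle markers was 3.16 to 4.62 above normal cord in lesion control and -0.12 to 1.37 with the NT-3 tube, and 8 sensory ganglion markers were at 1.69 to 2.57 and -0.88 to -0.72. The mean of the macrophage list was 2.30 to 2.49 and 3.22 to 3.32, and that of 7 neutrophil markers 2.15 to 3.39 and 2.95 to 3.08. RT1-CE10 was 2.58 higher with the NT-3 tube. The part of these in the difference was not tested.

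**Figure D4:**
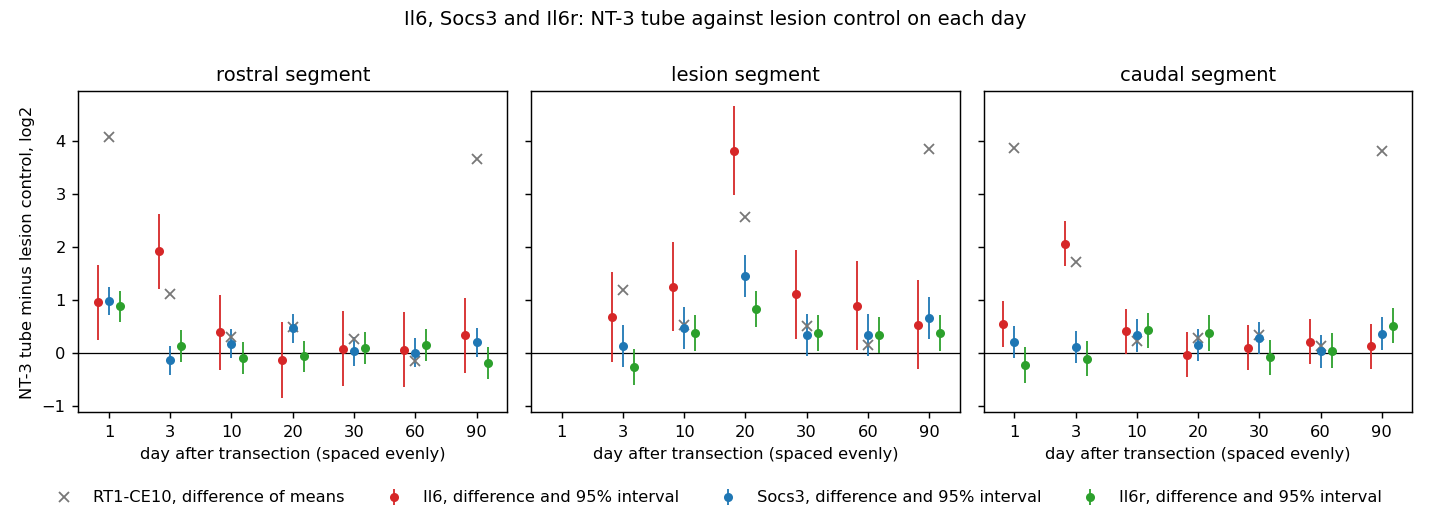
NT-3 tube minus lesion control (log2) for Il6, Socs3 and Il6r by segment and day after transection, spaced evenly. Points are limma estimates, bars their unadjusted 95% confidence intervals and grey crosses the difference of RT1-CE10 group means; the highest member value is Il6 in the lesion on day 20, at 3.82, with Socs3 at 1.46 and Il6r at 0.84, where RT1-CE10 differs by 2.58.

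Averaged over days, the NT-3 tube arm also exceeded lesion control. In the lesion Il6 was higher by 1.38 ± 0.17 (adjusted p = 8.08e-08), Socs3 by 0.57 (9.08e-07), Il6r by 0.34 (1.36e-04) and Stat3 by 0.25 (0.00138), so 4 of 5 members were called higher where 23% of genes were. The Stat3 average rests on days 30 and 60, at 1.24 and 0.79, its remaining days running from -0.38 to 0.08. The other Stat3 probe set showed no such difference on day 30. Il6st did not pass (0.01, adjusted p = 0.911). On single lesion days other than day 20, the Il6 differences of 0.68, 1.25, 1.11, 0.89 and 0.54 on days 3, 10, 30, 60 and 90 were not called. On days 10, 30 and 60, when RT1-CE10 differed by less than 1 between the arms, Il6 was still higher in the lesion by 1.09 (adjusted p = 7.73e-04) and Socs3 by 0.39 (0.00932).

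In the stumps the same averages were smaller. Rostrally Il6 was higher by 0.52 (adjusted p = 0.0247) and Socs3 by 0.25 (0.00343), with 1.77% of genes called higher. Caudally they were higher by 0.50 (adjusted p = 1.03e-04) and 0.21 (0.0136), against 3.95% of genes. None of these 4 was called on the RT1-CE10 matched days, where Il6 differed by 0.11 rostrally and 0.18 caudally (adjusted p = 0.913 and 0.353). In both stumps those were days 10, 20, 30 and 60. Days 1 and 3, with the largest Il6 differences, were left out by this, so the part of RT1-CE10 was not tested. The rostral Il6 call was also lost without replicate 3 of NT-3 tube rostral day 1 (0.47, adjusted p = 0.0559) and without replicate 2 of lesion control rostral day 1 (0.48, adjusted p = 0.051).

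The stump differences in Il6 lay mainly on day 3, and they were found with both tubes. Caudally on that day the NT-3 tube gave 7.78, 8.11 and 8.31, tube alone 7.65, 7.35 and 7.42 and lesion control 5.47, 6.01 and 6.52. Both tube arms lay wholly above lesion control, by 2.07 (adjusted p = 3.53e-09, against 1.59% of genes called higher) and 1.47 (adjusted p = 2.14e-05, against 1.6%). Rostrally the arrays read 8.09, 7.05 and 7.36 with the NT-3 tube and 6.77, 9.08 and 7.44 with tube alone, again wholly above the lesion control arrays of 5.20, 5.81 and 5.73. The differences were 1.92 (adjusted p = 6.57e-04, against 4.19%) and 2.18 (adjusted p = 2.34e-04, against 1.7%), and neither passed when only the groups compared were fitted (adjusted p = 0.146 and 0.145). Between the tubes on that day Il6 differed by -0.26 rostrally and by 0.59 caudally (adjusted p = 0.736 and 0.134). Il6 thus stood higher on day 3 in the stumps of both tube arms, on a day when RT1-CE10 differed from lesion control by 1.12 rostrally and 1.73 caudally with the NT-3 tube and by 0.44 rostrally and 0.16 caudally with tube alone.

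On day 1 all 5 members were called in the rostral stump of the NT-3 tube arm, Stat3 lower and the others higher. Socs3 was higher by 0.99 (adjusted p = 5.68e-07), Il6 by 0.96 (0.0332), Il6r by 0.88 (2.06e-05) and Il6st by 0.35 (0.0025), while Stat3 was lower by 0.59 (adjusted p = 0.0119). On that day 17.3% of all genes were called higher, a share that leaves out genes called lower, as Stat3 was. The Il6 arrays overlapped, at 9.91, 10.62 and 11.30 against 10.74, 9.11 and 9.10, and the Il6 call was lost without replicate 3 of the NT-3 tube (0.61, adjusted p = 0.257), as was that of Stat3 (-0.41, adjusted p = 0.143). The Il6 call was also lost without replicate 2 of the NT-3 tube or replicate 2 or 3 of lesion control (adjusted p = 0.0734, 0.203 and 0.186), and that of Stat3 without replicate 3 of lesion control (-0.42, adjusted p = 0.11). On the same arrays RT1-CE10 was 4.08 higher with the NT-3 tube, and the neutrophil list read 2.39 to 3.84 above normal cord against 1.20 to 2.01. Their part in the differences was not tested.

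Stat3 was called between the NT-3 tube and lesion control on days 30 and 60 in the lesion. It was higher by 1.24 on day 30 (adjusted p = 3.28e-07), when 8.38% of genes were called higher, and by 0.79 on day 60 (adjusted p = 3.98e-04), when 15.4% were. On day 30 the lesion minus stumps difference between the arms was 1.00 (adjusted p = 0.0169), lost without replicate 1 of either lesion group. The other Stat3 probe set showed no such difference on day 30, with group means of 9.65 and 9.64. Muscle markers differed between these arrays as well, at 2.35 to 3.61 above normal in lesion control and -0.13 to 1.12 with the NT-3 tube, and their part was not tested.

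The empty tube by itself differed from lesion control in both stumps, with more members called rostrally in the averages over days. Averaged over days, Il6 was higher rostrally by 0.44 (adjusted p = 0.0105) and Socs3 by 0.32 (8.35e-06), against 12.2% of genes. Both were also called on the RT1-CE10 matched days, by 0.52 (adjusted p = 0.0221) and 0.24 (0.00541). Unlike those of the NT-3 tube, these days include day 3. On day 3 Il6 differed by 2.18, against 0.03 to 0.19 on the other matched days. Socs3 was higher by 0.78 on day 1 (adjusted p = 5.69e-05, against 8.03% of genes), when RT1-CE10 was 4.11 higher with the tube. Caudally Il6 differed by 0.23 (adjusted p = 0.0575), close to the threshold. It was called without some single arrays, such as lesion control caudal day 1 replicate 3 (0.28, adjusted p = 0.0126). Only Socs3 was called there with all arrays (0.19, adjusted p = 0.0299, against 3.66% of genes), not on the matched days (adjusted p = 0.0941). This Socs3 call was lost without any of 5 single arrays: lesion control caudal day 1 replicate 2, day 3 replicate 3, day 20 replicate 1 or day 60 replicate 1, or tube alone caudal day 1 replicate 3 (0.16 to 0.18, adjusted p = 0.0506 to 0.0581). In the lesion on day 3, the only day sampled, none of the 5 members was called, where 1.88% of genes were called higher. Il6 read 7.73, 7.98 and 7.53 there, below all 3 lesion control arrays, a difference of -0.85 with an adjusted p of 0.198.

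NT-3 tube and tube alone differed in the lesion on day 3. Il6 read 9.61, 8.69 and 9.53 with the NT-3 tube, all above the tube alone arrays, a difference of 1.53 ± 0.41 (adjusted p = 0.00753). Il6st read 11.33, 11.30 and 11.18, also wholly above tube alone, by 0.59 (adjusted p = 5.96e-05). These were 2 of 5 members, against 16% of genes called higher. Il6st also exceeded lesion control on that day, by 0.41 (adjusted p = 0.00295). RT1-CE10 was 1.28 higher with the NT-3 tube than with tube alone there, and its part was not tested.

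Averaged over days, no member was called between the tubes rostrally, where 15.6% of genes were called higher, or caudally, where 1.96% were. The Il6 averages were 0.08 and 0.26 (adjusted p = 0.712 and 0.0506). The caudal Il6 value lay at the threshold, and leaving out any of 14 single arrays gave a call (0.27 to 0.29, adjusted p = 0.0254 to 0.0496). Rostrally Stat3 was called lower without NT-3 tube rostral day 30 replicate 1 (-0.18, adjusted p = 0.0454).

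On single stump days a few members differed between the tubes. Over the 15 single-day comparisons of the tubes, lesion day 3 included, 8 member tests were called. Of tests over all genes, 6.93% were called in either direction. Rostrally on day 1, Il6r was higher with the NT-3 tube by 0.67 (limma, adjusted p = 0.012). That call was lost without NT-3 tube replicate 2 or 3 or tube alone replicate 2 (adjusted p = 0.0694, 0.169 and 0.145). Caudally on day 1, Il6 read 9.91, 9.73 and 9.64 with the NT-3 tube and 8.79, 8.97 and 8.38 with tube alone, without overlap. The difference was 1.05 (adjusted p = 0.00223), and 0.88 without replicate 3 of tube alone (adjusted p = 0.0746). Rostrally on day 3, Socs3 was lower with the NT-3 tube by 0.63 (adjusted p = 0.00941), a call lost without replicate 1 of tube alone (-0.53, adjusted p = 0.0796). Stat3 was lower with the NT-3 tube rostrally on days 1 and 30, by 0.79 and 0.85 (adjusted p = 0.0168 and 0.00192), and higher on day 90, by 0.92 (adjusted p = 7.72e-04). These Stat3 values come from the probe set used alone, which correlated with the other at r = 0.455. The day 1 call was lost without replicate 3 of the NT-3 tube (-0.61, adjusted p = 0.226) or replicate 1 of tube alone (-0.66, adjusted p = 0.107). On day 90 tube alone itself was low and spread (9.79 ± 0.51, SD), and it was called below lesion control (-0.58, limma, adjusted p = 0.0188). That call was lost without tube alone replicate 1 or 2 or lesion control replicate 2 or 3. The NT-3 tube was not called against lesion control then (0.35, adjusted p = 0.259). On day 90 RT1-CE10 was 3.26 higher with the NT-3 tube than with tube alone, and its part was not tested.

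**Figure D5:**
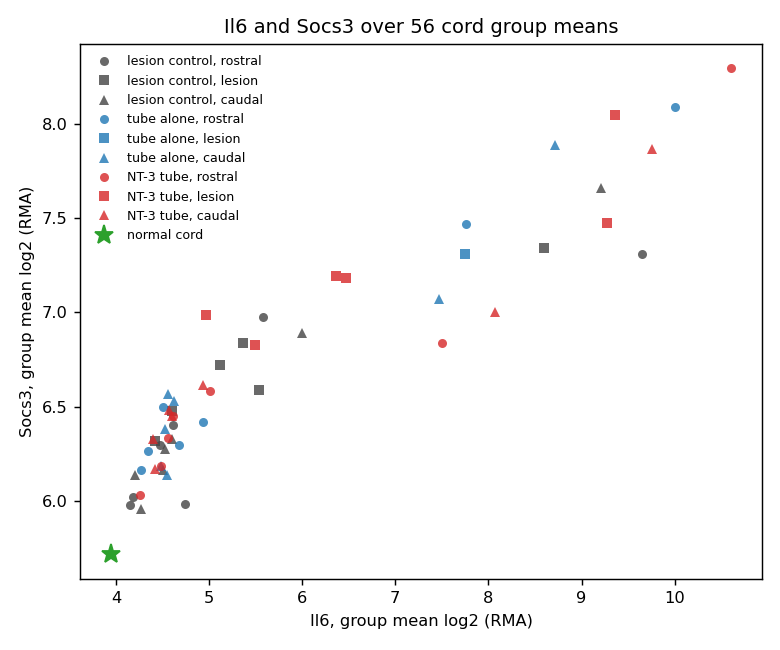
Group mean of Socs3 (vertical axis) against group mean of Il6 (horizontal axis), both as log2 RMA signal, for the 55 injured groups, coloured by arm with a shape per segment, and normal cord (star). Pearson's r over the 56 means is 0.934; normal cord lies at the lower left, at 3.95 and 5.72, and NT-3 tube lesion day 20 lies among the first-day groups at the upper right, at 9.36 and 8.04.

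Ranked over all 55 groups and normal cord, Il6 was highest with the NT-3 tube rostrally on day 1 (10.61 ± 0.70, SD, n = 3), then with tube alone rostrally on day 1 (10.00 ± 0.84), the NT-3 tube caudally on day 1 (9.76 ± 0.14), lesion control rostrally on day 1 (9.65 ± 0.94), the NT-3 tube in the lesion on day 20 (9.36 ± 1.51) and on day 3 (9.28 ± 0.51). Neighbours in this order differ by less than the larger of their SDs. Normal cord was lowest, and 50 of the 55 groups had every array above all normal arrays. Socs3 followed a like order. Its highest means were those of the NT-3 tube and tube alone rostrally on day 1 (8.29 ± 0.19 and 8.09 ± 0.13) and of the NT-3 tube in the lesion on day 20 (8.04 ± 0.48), again with each step within the larger SD except the first, and in 52 of 55 groups every array was above normal. Il6r was ordered otherwise, its 5 highest means all being from the lesion, led by lesion control on day 3 (9.14 ± 0.11).

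The genes whose pattern over the 56 group means was most like that of Il6, among 11989 genes, were Cxcl2, a neutrophil chemokine (r = 0.957), Il1r2, a decoy receptor for IL-1 (0.952), and Nfil3, a leucine zipper transcription factor (0.943). For Socs3 they were Csrnp1 (0.933) and the chemokines Cxcl1 (0.928) and Ccl2 (0.923). For Il6r they were the lymphocyte-oriented kinase Stk10 (0.95), the leukocyte phosphatase Ptprc (0.939) and the microglial gene Nrros (0.916). Il6st was matched less closely, by Cgnl1 (0.833), Cdc14a (0.828) and Pcdhb12 (0.824), and Stat3 by Rnf125 (0.825), Gemin5 (0.769) and Ggnbp2 (0.758). Lif, near background, had Nav2 (0.814), Vax2 (0.796) and Fchsd1 (0.794). Among the members themselves, Il6 correlated with Stat3 at 0.538, with Il6st at 0.114 and with Il6r at 0.092. The points share normal cord and their normalisation, and the coefficients are descriptions.

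Of 10 other ligands of the family, 6 had a probe set. In the lesion of lesion control on day 3, 3 of 5 tested were higher and 1 lower, where 42.3% of all genes were called higher. Ebi3, a subunit of IL-27, was higher by 2.08 (adjusted p = 9.88e-09), Osm, encoding oncostatin M, by 1.45 (9.17e-08) and Il11 by 0.67 (6.41e-04). Cntf, the ciliary neurotrophic factor gene, was lower by 1.46 (adjusted p = 4.04e-06), while on day 1 it was higher in the stumps, by 0.72 rostrally and 0.61 caudally. By day 90 only Ctf1, encoding cardiotrophin-1, was called in the lesion (1.08, adjusted p = 2.65e-10). Of 5 other receptors, 4 had a probe set. Il11ra1 was lower in the lesion on day 3 by 0.53 (limma, adjusted p = 1.13e-05) and higher by 0.81 on day 90 (9.62e-09). Cntfr was lower there on day 90 by 0.37 (adjusted p = 0.00687) and not called on day 3. Lifr was called on neither day. Over the lesion days, 72.3% of tests over all genes were called in either direction.

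The signal transducers moved both ways. In the lesion on day 3, 4 of 9 were higher and 4 lower, a share near the 42.3% of all genes called higher, among them the kinase Jak2 (2.03, adjusted p = 5.78e-13) and Stat5b (1.36), against the adaptor Gab1 (-1.52, adjusted p = 1.88e-12) and the phosphatase Ptpn11 (-1.11). On day 90 the counts were 3 higher and 4 lower, where 32.6% of all genes were called higher, with Jak2 at 0.94 and Ptpn11 at -1.04. Among the inhibitors of the pathway, 5 of 9 were higher and 2 lower on day 3, against the same 42.3%. The phosphatases Ptpn6, abundant in blood cells, and Ptpn2 were higher by 2.89 (adjusted p = 3.14e-26) and 1.93 (1.32e-18), while Socs7 and Socs2 were lower by 0.52 and 0.51. On day 90, 5 were higher, against 32.6% of all genes, with Ptpn6 at 1.56 and Pias3, a STAT3 inhibitor, at 1.04.

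Genes listed as STAT3 or acute-phase targets were higher in nearly every case. On the first day sampled, 20 of 22 were called higher rostrally, 21 of 23 in the lesion (1 lower) and 22 of 23 caudally, with median differences of 1.95, 2.65 and 2.15 against -0.02, 0.11 and -0.03 over all tested genes. The shares of all genes called higher were 22.9%, 42.3% and 23.1%. In the lesion on day 3 the largest were the monocyte chemokine Ccl2 (7.03, adjusted p = 1.59e-27), the lipopolysaccharide-binding protein gene Lbp (6.65), the protease inhibitor Timp1 (4.88) and Myc (3.63). Rostrally on day 1 they were Ccl2 (6.64), Lcn2 (5.66), Timp1 (5.35) and Lbp (5.31), and caudally Ccl2 (6.78), Serpina3n (6.12), Lcn2 (6.09) and Timp1 (5.50). As background, many of these genes are also induced by other inflammatory signals.

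Most of these targets were also called on the last day. On day 90, 17 of 23 were higher and 1 lower in the lesion, 13 of 22 higher and 1 lower rostrally and 17 of 23 higher and 1 lower caudally, with medians of 1.82, 0.66 and 0.92, where 32.6%, 21.6% and 18.7% of all genes were called higher. Lbp (5.18), Ccl2 (4.60), the copper carrier Cp (3.71) and Timp1 (3.68) led in the lesion, and Cp rostrally (3.82) and caudally (3.44). With the NT-3 tube in the lesion on day 20, 14 of 23 targets were higher than in lesion control and none lower (median 0.60 against 0.04 over all genes), as were 3 of 5 other ligands (1 lower), 6 of 9 transducers and 4 of 9 inhibitors. On that day 19.5% of all genes were called higher.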

How the data were processed

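The submitters' processing notes name Affymetrix Expression Console and RMA, and the deposited values are log2 RMA signals by the authors; their versions and any build are not given in these sources. RMA equalises arrays and compresses low signals. The labels call the pools independent, so p-values reflect variation among pools, and precision is limited by the few arrays per group. Of 31099 probe sets, 20832 carry 1 gene symbol, 436 several and 9831 none in the annotation used. Genes were tested where 1 group mean reached 6.55. Each segment was fitted apart with normal cord in limma 3.58.1 (R 4.3.3; lmFit, eBayes), with 1 mean per arm and day, adjusted by Benjamini and Hochberg within each comparison. Comparisons between segments used 1 fit of all cord arrays. The script was tested on simulated data.

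Members, lists and tests were chosen with earlier results of these data known. Named pathway genes are the 4 called with the largest difference on the first day and on day 90, and similar genes the 3 with the highest r. Single-day arm comparisons and the lesion against stumps difference between arms were added after seeing the data. Alternatives were no dim filter, quantile normalisation, trend and robust prior, array weights, a replicate block, 1 fit, only the groups compared, the mean of all probe sets, RT1-CE10-matched days and leaving out each array. The arrays numbered 2, 3 and 5 in one group were taken as names. Day 60 is in the sample labels only.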

Additional observations from a re-analysis of the deposited data

Results flagged for a closer look

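The effect of the NT-3 tube against lesion control was tested for a difference between the lesion and the mean of both stumps on each of 6 days, which gave 30 tests over the 5 members, and 6 passed at an adjusted p under 0.05 in limma. Of the same tests over all genes, 16.1% passed in either direction. On day 3 the difference was -1.31 for Il6, so the NT-3 tube arm exceeded lesion control by less in the lesion than in the stumps, and 0.52 for Il6st, in the opposite direction. The Il6 value lost its call without replicate 2 of NT-3 tube lesion day 3 (-1.02, adjusted p = 0.126) and without replicate 3 of lesion control lesion day 3. On day 20 the difference was 3.90 for Il6, 1.15 for Socs3 and 0.68 for Il6r. On day 30 it was 1.00 for Stat3, on a day when the probe sets of that gene disagree.

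The 5 arrays of universal rat reference RNA belong to no comparison above. All 5 lay above all 3 normal cord arrays for Il6 (a difference of 6.96), Socs3 (1.54), Stat3 (0.84) and Il6r (0.57). Il6 read 11.11, 10.93, 11.09, 10.96 and 10.48 there, and the array at 10.48 stood apart: its gap to the next array was 0.714 of the range, just past Dixon's 95% critical value for 5 samples. Chance marks about 1 in 20 such groups.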

How the results depend on the processing

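Over 8645 recomputed member values, 8368 kept their side of the threshold, 125 lost the call, 151 gained one and 1 reversed. Reversed means a change of sign with a call before or after, so values never called that changed sign count as kept. Leaving out each array in turn gave 4795 of these values, with 76 lost, 41 gained and 0 reversed. Leaving day 30 out of the lesion control averages over days 10 to 30, chosen after seeing the data, changed no call of a member. The one reversal was Stat3 in lesion control against normal cord, lesion day 30, at 0.49 instead of -0.02 with the mean of all probe sets. The cause was not tested. Array weights, whose estimate stopped before convergence in some fits, raised the number of member calls in rostral against caudal from 0 to 2, NT-3 tube against lesion control on single days from 14 to 33, tube alone against lesion control from 3 to 7 and on single days from 5 to 15, NT-3 tube against tube alone from 2 to 4, and the arm difference of lesion against stumps from 6 to 11. RT1-CE10-matched days lowered NT-3 tube against lesion control from 8 to 4. For these arms they leave out days 1, 3 and 90 in the stumps and days 3, 20 and 90 in the lesion. Tube alone against lesion control on single days gave 3 with 1 fit of all cord arrays and 3 with only the groups compared, which also lowered NT-3 tube against tube alone on single days from 8 to 4. Leaving out single arrays moved tube alone against lesion control between 2 and 5 calls, 5 being without replicate 3 of lesion control caudal day 1.

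The replicate numbers were checked as a pairing: of 138 pairs of same-numbered arrays, 64 deviated together with r over 0.1 (median 0.065, against -0.012 for other numbers). No pairing was used in the main fits. Such correlations cannot show whether same-numbered arrays hold tissue of the same animals. With the replicate block, calls in NT-3 tube against lesion control on single days went from 14 to 18 and in the arm difference of lesion against stumps from 6 to 7.

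Il6, Lif and Socs3 are limited by signal: most Il6 group means after day 3, all Lif means and Socs3 in normal cord lie near background, where RMA compresses differences. Groups hold 3 pools of 4 animals each, and the normal baseline rests on 3 arrays.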
